A study of Drosophila melanogaster with 20 samples.

Results

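The sites described here are the places on fruit fly chromatin where the ecdysone receptor EcR gave a CUT&RUN peak in the wing, the leg and the salivary gland alike. A site belonged to the set when the authors' deposited table marked it as overlapping a supernatant peak in each of the 3 tissues. Sites on chromosomes 4, Y and M, and sites toward the centromere on 4 of the large arms, were left out by position (midpoint at or beyond 22 Mb on 2L, 23 Mb on 3L and 22 Mb on X, and below 4.5 Mb on 3R), with no limit on 2R. This gave 350 of 3463 sites (10.1%), called the shared sites here. The 3 tissues carried the same genotype, w with the tagged allele EcR-GFSTF over the deficiency Df(2R)BSC313. They came from female wandering third-instar larvae, labelled as 6 hours before puparium formation, with at least 90 wings, 90 legs or 50 salivary glands dissected. EcR was profiled with an antibody to the Flag epitope of the tag, which tethers a nuclease that cuts out the DNA around the bound protein. Fragments released into the supernatant and fragments kept in the pellet were sequenced apart. Each tissue had 2 replicates of each fraction, which makes 12 libraries. A further 8 libraries with IgG in place of the antibody (6 of wild-type wings, 2 of glands with the tagged genotype) were not analysed here. At this stage wings and legs are imaginal discs, the sacs of dividing cells that form the adult appendages, while the salivary gland is a secretory tissue of large polytene cells that dies after pupariation. No measurement here bears on the tissue labels themselves.

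EcR is the nuclear receptor for the moulting hormone ecdysone and binds DNA as a heterodimer with Usp. Rising hormone at the end of larval life turns EcR from a repressor to an activator, and its first targets are genes of further transcription factors, among them Eip75B, Eip74EF and br, which were known as early puffs on the polytene chromosomes of the salivary gland. These factors pass the signal on to genes for cell death in the gland and for eversion and cuticle formation in the discs.

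The set was chosen from peak calls, so its strength in the same libraries is a description and was not tested. Peaks were called on merged replicates, and each tissue therefore has 1 value per site, with no replicate error. The fold enrichment is the authors' own value for each peak over background, and it ranks peaks within a list only. Among the shared sites it ran between 2.44 and 111 in the wing list (median 13.1), between 2.71 and 160 in the leg list (median 15.1) and between 3.29 and 90.2 in the gland list (median 8.85). The gland list held the lowest −log10 q of the 3 peaks at 267 shared sites, the leg list at 44 and the wing list at 39. With depth unknown, this order is not a comparison of binding between the tissues. Peak names also point to merged wing IgG as the control behind every list, the gland's included. The mean normalised read count in the authors' deposited table had a median of 47.9 over the shared sites, with quartiles of 27.7 and 87.3, against 9.59 over all sites. Of the shared sites, 347 (99.1%) were at or above that median of all sites. They were also wider, with a median of 364 bp against 148 bp for all sites. Depth per library is unknown. No label ties a replicate to a dissection of its own, so the p-values of the authors cover only differences among these libraries, and that spread may be technical.

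**Figure D1:**
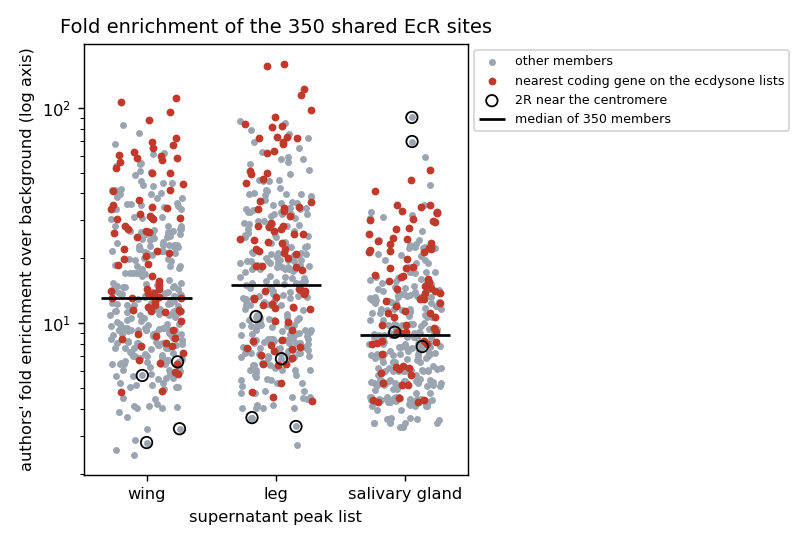
Fold enrichment over background (log axis, the authors' value per peak) of the 350 shared sites in the wing, leg and salivary gland supernatant lists, with red points for sites whose nearest coding gene is on the lists of ecdysone genes, rings for 4 sites of 2R near the centromere and bars for the medians. The medians were 13.1 in wing, 15.1 in leg and 8.85 in gland, and the ringed sites include the top 2 of the gland list at 90.2 and 69.7.

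The edges of the set were as follows. Position removed 3 sites that otherwise met the rule, in Cht10, a chitinase gene (on 2L from 23025463 to 23025644, fold enrichment 9.93 in wing, 13.8 in leg and 4.30 in gland), in spok, a gene of ecdysone synthesis (on 3R from 3344837 to 3344947, with 2.63, 4.70 and 29.5 in the same order), and on the mitochondrial chromosome M (4.91, 8.66 and 157). The shared sites closest to the limits lay in Hr39 at 21.3 Mb on 2L, in mub at 21.9 Mb on 3L, in the overlapping Hus1-like and ctrip at 4.81 Mb on 3R and in slgA at 21.4 Mb on X. By peak strength the sites just inside were those of Fkbp14 (−log10 q of 1.34 in the wing list), tou and EDTP (1.41 each in the gland list) and regucalcin (1.42 in the wing list). A value under 2 in the weakest list was found for 12 shared sites, and 173 had 10 or more in every list.

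The shared sites were spread over the 5 large chromosome arms, with 71 of 528 sites on 2L (13.4%), 56 of 563 on 2R (9.95%), 98 of 725 on 3L (13.5%), 68 of 678 on 3R (10.0%) and 57 of 538 on X (10.6%). Many sat close together. Another shared site lay within 5000 bp for 159 of them (45.4%), and 23 stretches with 3 or more sites each held 103 sites. The same share was not computed over all sites, so this closeness cannot be called particular to the shared sites. The longest rows of sites were in Eip75B, with 8 sites in 14.8 kb and 8 more in 13.1 kb, and in Hr4, with 7 sites in 10.0 kb. Another 3 stretches held 6 sites each, inside and next to Blimp-1, around CG12078 and CG43389 on 3L, and in COX7AL2 and on toward CG31668 on 2L. Sites of 1 gene are therefore not independent of each other.

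The midpoint lay inside a coding gene span at 255 shared sites (72.9%, exact 95% interval 67.9 to 77.4), against 69.9% for all 3032 sites in the same chromosome windows, 67.0% for the 537 sites of wing and leg without the gland and 81.5% for the 677 sites of the gland alone. At 500 bp or less from either end of a coding span were 37 shared sites (10.6%), against 12.9% of all sites and 19.9% of gland-alone sites. More than 5000 bp from any coding span lay 20 shared sites (5.71%, 3.53 to 8.69), against 12.4% (11.2 to 13.6) of all sites, 14.5% of the sites of both discs and 3.69% of gland-alone sites. The gene table used has no strand and no exons, so a site is given as inside a span or by its distance from one. These intervals cover counting error only and treat sites as independent.

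Within a shared site the peaks of the 3 tissues had their summits close together. The wing and leg summits were a median of 17 bp apart, the wing and gland summits 25.5 bp and the leg and gland summits 25 bp. At 209 shared sites (59.7%) the 3 summits lay within 50 bp of each other. The wing and leg summits were on the same base at 37 shared sites, the leg and gland summits at 16 and the wing and gland summits at 11. For the 537 sites of both discs without the gland, the wing and leg summits were a median of 21 bp apart.

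The pellet libraries were not used to choose the set, and their lists come from other libraries than the rule used. They are independent of the rule as libraries but not as dissections, so the overlap is no independent replication. A peak of the wing pellet list overlapped 325 shared sites (92.9%, exact 95% interval 89.6 to 95.3), a peak of the leg pellet list 253 (72.3%, 67.3 to 76.9) and a peak of the gland pellet list 242 (69.1%, 64.0 to 73.9). All 3 pellet lists had a peak at 185 shared sites (52.9%, 47.5 to 58.2), and among all 3032 sites in the windows only 206 had that. Sites of both discs without the gland had a gland pellet peak in 3.72% of cases (2.29 to 5.69) and a peak in all 3 pellet lists in 13 of 537. Sites of the gland alone had a wing pellet peak in 2.36% of cases (1.36 to 3.81) and a peak in all 3 lists in 1 of 677. In the pellet lists of their own tissues, sites of both discs had a peak in 81.2% (wing) and 41.9% (leg) of cases. Gland-alone sites had a gland pellet peak in 52.7% of cases. The classes also differed in their mean normalised read count, with medians of 47.9 at shared sites, 15.0 at sites of both discs and 10.3 at gland-alone sites in the authors' deposited table. The part of signal strength in these shares was not tested. Where a pellet peak was present, its summit was a median of 18 bp from the supernatant summit in the wing, 20 bp in the leg and 25 bp in the gland.

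**Figure D2:**
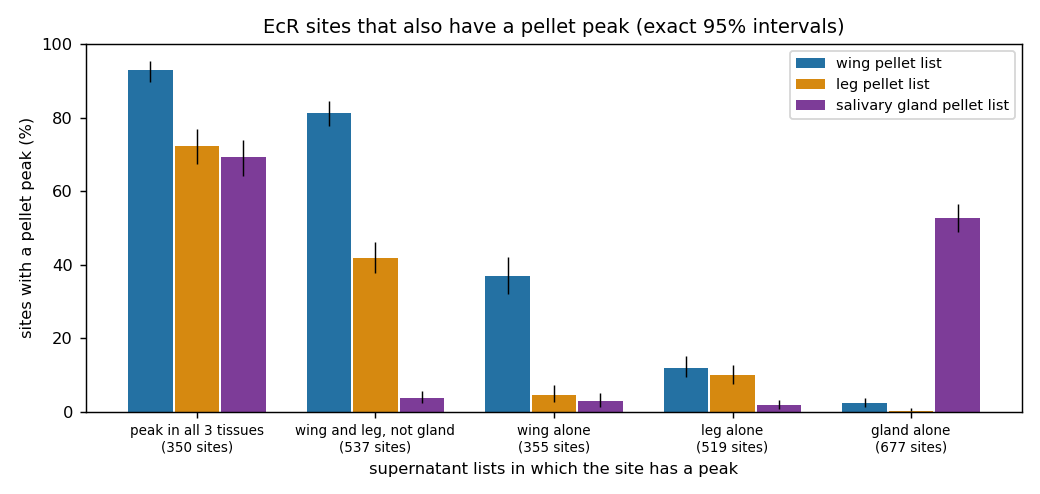
Share of EcR sites (in percent, with exact 95% intervals) that overlap a pellet peak of the wing, leg and salivary gland, for sites grouped by the supernatant lists in which they have a peak. The 350 shared sites stand at 92.9%, 72.3% and 69.1%, while sites of both discs without the gland drop to 3.72% in the gland pellet list and gland-alone sites to 2.36% in the wing pellet list. In their own lists, sites of both discs stand at 81.2% (wing) and 41.9% (leg), and gland-alone sites at 52.7% (gland).

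A peak in every tissue did not mean an equal level in every tissue. The authors' deposited tables compare the read counts of the tissues at each site, and a site is called here where their adjusted p is under 0.05. Between wing and salivary gland, 198 of the 350 shared sites were called in the authors' deposited table, 99 higher in the wing and 99 higher in the gland, beside 55.1% of all sites tested (28.7% higher in the wing and 26.4% higher in the gland). Between leg and gland, 190 were called in the authors' deposited table, 78 higher in the leg and 112 higher in the gland, beside 52.3% of all sites (29.6% and 22.7%). The shares called, 56.6% and 54.3%, are near those of all sites and are no result about the shared sites. Between wing and leg, 9 shared sites were called in the authors' deposited table, 8 higher in the wing and 1 in the leg, beside 1.47% of all sites (0.571% and 0.902%). The gland libraries are the same in both comparisons with a disc, so these are not independent of each other. No comparison called 128 shared sites (36.6%), beside 36.1% of all sites.

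Against the gland, the median log2 fold changes of the shared sites were nearer to 0 than those of the classes given here. Their median in the authors' deposited tables was 0.04 for wing over gland (from −5.14 to 2.74), against 0.46 for all sites, 1.32 for sites of both discs and −2.45 for gland-alone sites. For leg over gland the median in the authors' deposited table was −0.15 (from −5.15 to 2.66), against 0.63 for all sites, 1.32 for sites of both discs and −1.97 for gland-alone sites. Those classes were made from peaks of the same tissues, so this order follows from the choice. For wing over leg the median in the authors' deposited table was 0.10 (from −2.09 to 1.71), against −0.18 for all sites, 0.02 for sites of both discs and −0.41 for gland-alone sites. The median standard error at shared sites in the authors' deposited tables was 0.33 for wing over gland, 0.36 for leg over gland and 0.32 for wing over leg. The fold changes of all sites on the large arms are not centred on 0, with medians of 0.42, 0.63 and −0.19 in the same order. Relative to these medians, the calls at shared sites split as 64 wing-higher and 136 gland-higher (200 in all, beside 16.5%, 30.6% and 47.2% of all sites), as 37 leg-higher and 174 gland-higher (211 in all, beside 11.8%, 30% and 41.8% of all sites), and as 18 wing-higher and 0 leg-higher (18 in all, beside 1.39%, 0.491% and 1.88% of all sites). With an absolute log2 fold change of 1 or more as well, the authors' deposited tables gave 76 wing-higher and 70 gland-higher shared sites (146 in all, beside 27.2%, 25.4% and 52.6% of all sites). For leg and gland they gave 68 and 81 (149 in all, beside 28.9%, 21.7% and 50.6%), and for wing and leg 5 and 1 (6 in all, beside 0.481%, 0.902% and 1.38%). The split of higher against lower calls thus rests on where 0 is put.

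**Figure D3:**
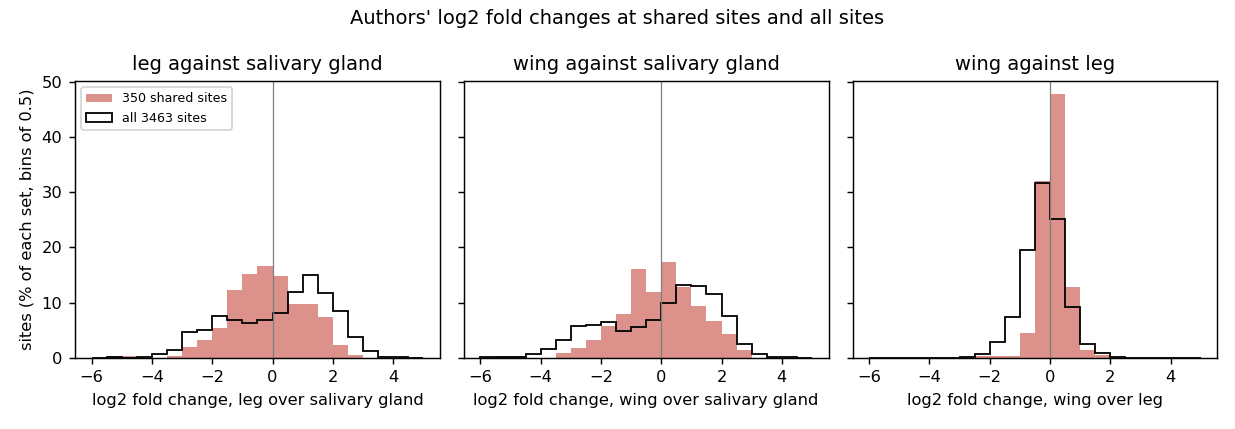
Distribution of the authors' log2 fold changes (share of sites in percent per bin of 0.5) for leg over salivary gland, wing over salivary gland and wing over leg, with filled bars for the 350 shared sites and outlines for all 3463 sites. Against the gland the shared sites peak near 0, with medians of −0.15 for the leg and 0.04 for the wing, and between the discs they lie close around 0.10.

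Over 22 gene lists, 99 shared sites (28.3%) lay in or within 2000 bp of a listed gene, and 81 of these (23.1%) at genes of the 3 lists on the ecdysone pathway, against 214 of all 3032 sites in the windows (7.06%). The lists were written with earlier results of these data known, so this difference is a description and no independent support. The 214 include the 81, and Eip75B alone held 23 of the 81. Of 15 nuclear receptor genes of the cascade, 7 had at least 1 shared site, with 43 sites in all. In the authors' deposited tables, 12 of the 43 were wing-higher and 15 gland-higher (median log2 fold change 0.11), and 9 were leg-higher and 17 gland-higher (median −0.39). Of 28 other ecdysone response genes, 10 had shared sites, 36 in all. In the authors' deposited tables, 5 of these were wing-higher and 12 gland-higher (median −0.37), and 5 were leg-higher and 15 gland-higher (median −0.56). The medians of all sites are the 0.46 and 0.63 given above. Of all sites tested, 28.7% were wing-higher and 26.4% gland-higher, and 29.6% were leg-higher and 22.7% gland-higher. Whether the lists differ from these shares was not tested.

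Eip75B codes for a nuclear receptor of the Rev-erb type that binds heme and is induced directly by ecdysone. It had 23 shared sites, more than any other gene, along a span of 114 kb on 3L, out of 57 sites in or within 2000 bp of it. Another 15 of the 57 had a peak in the gland alone and 8 in both discs without the gland. Fold enrichments at the 23 ran between 6.73 and 72.4 in the wing, between 5.25 and 81.7 in the leg and between 5.76 and 35.4 in the gland. Of the 23, the authors' deposited tables had 7 that were wing-higher and 9 gland-higher, and 6 that were leg-higher and 11 gland-higher, and the remainder were not called. Sites of opposite direction lay side by side in this gene. The site with the highest wing fold enrichment, from 17964478 to 17965802, had fold enrichments of 72.4 in wing, 73.2 in leg and 29.8 in gland and was not called, with −0.01 (SE 0.24) for wing over gland and −0.21 (SE 0.26) for leg over gland in the authors' deposited tables. The highest leg value, 81.7, was at the site from 18007199 to 18008000, with 62.4 in wing and 32.3 in gland, and this one was higher in the discs, by 1.43 (SE 0.24, adjusted p = 2.34e-08) for wing over gland and 1.21 (SE 0.26, adjusted p = 3.29e-05) for leg over gland in the authors' deposited tables. The highest gland value, 35.4, was at the site from 17971156 to 17971867, with −1.37 (SE 0.28) and −1.66 (SE 0.30) in the authors' deposited tables. The site from 17991717 to 17992257 had 34.0, 36.9 and 7.22 in wing, leg and gland, and was higher in the wing by 2.54 (SE 0.38, adjusted p = 9.73e-10) and in the leg by 1.59 (SE 0.42, adjusted p = 0.000774) in the authors' deposited tables. The site from 17989327 to 17989462 had 10.3, 6.86 and 19.9, with −1.85 (SE 0.28) for wing over gland and −2.29 (SE 0.31) for leg over gland in the authors' deposited tables. Toward the far end, the site from 18029608 to 18029910 gave −2.44 (SE 0.25) and −1.92 (SE 0.26) in the authors' deposited tables, and the next shared site, from 18037780 to 18038256, gave 2.29 (SE 0.35) and 2.47 (SE 0.38). The gene therefore holds shared sites at the disc end and at the gland end of the range. A peak in all 3 pellet lists was present at 16 of the 23.

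**Figure D4:**
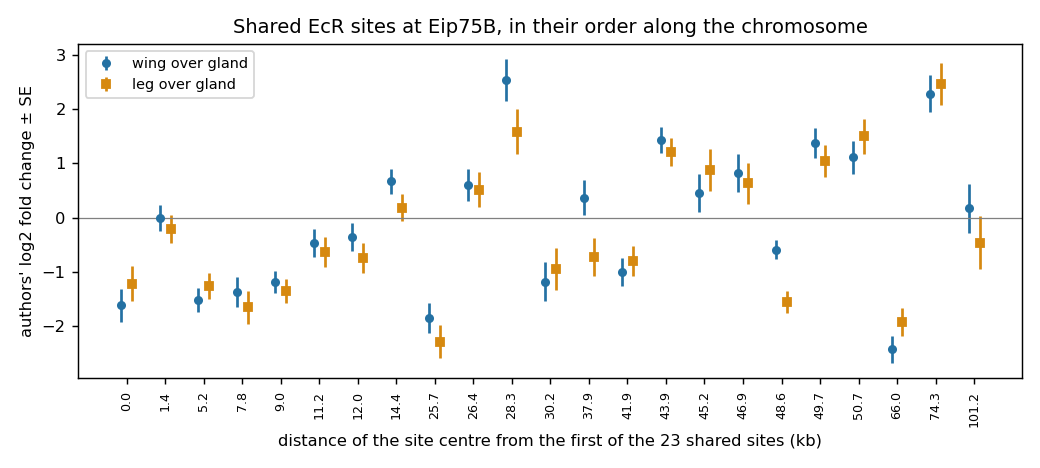
The authors' log2 fold changes ± SE of wing over salivary gland (circles) and leg over salivary gland (squares) at the 23 shared sites of Eip75B, in their order along the chromosome and labelled by distance from the first (kb). Sites above and below 0 are mixed along the gene, between −2.44 and 2.54 for the wing and between −2.29 and 2.47 for the leg.

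Hr4, a nuclear receptor gene on X that acts in the early cascade, had 8 shared sites out of 19. The strongest, from 1947901 to 1948584, had fold enrichments of 95.8 in wing, 123 in leg and 51.3 in gland and was not called in any comparison (0.36, SE 0.25, for wing over gland and 0.32, SE 0.27, for leg over gland in the authors' deposited tables). The authors' deposited tables called 3 of the 8 wing-higher and 2 gland-higher, and likewise 2 leg-higher and 2 gland-higher. The site from 1945097 to 1945725 was 1 of those higher in the gland, with fold enrichments of 4.85, 4.80 and 16.3 in wing, leg and gland. Its log2 fold changes in the authors' deposited tables were −2.47 (SE 0.39, adjusted p = 6.26e-09) for wing over gland and −2.04 (SE 0.42, adjusted p = 1.97e-05) for leg over gland. A neighbour, from 1947097 to 1947660, stood at 0.51 (SE 0.22, adjusted p = 0.0356) and 0.58 (SE 0.23, adjusted p = 0.0304).

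Other nuclear receptor genes had fewer shared sites. Hr39, a relative of ftz-f1, had 4, and they were all the sites of this gene. The Hr39 site from 21251805 to 21251976 had fold enrichments of 8.71 in wing, 6.40 in leg and 23.2 in gland, and was higher in the gland than in the wing (−1.57, SE 0.34) and than in the leg (−1.96, SE 0.38) in the authors' deposited tables. Hr3, an orphan receptor that acts later in the cascade, had 4 of 9 sites, and 1 of these was higher in the gland than in either disc (−1.14, SE 0.25, for wing over gland and −0.93, SE 0.27, for leg over gland in the authors' deposited tables). Its span overlaps those of CG12912 and CG46321. Eip78C had 2 shared sites of 11, next to each other, with wing fold enrichments of 58.4 and 56.0, leg fold enrichments of 49.9 and 63.1 and gland fold enrichments of 10.7 and 21.4. Both exceeded the gland in the wing (1.95, SE 0.28, and 0.68, SE 0.23), and the first was also higher in the leg (1.19, SE 0.30) in the authors' deposited tables. EcR itself had 1 shared site of 8, while 6 had a peak in the gland alone. That EcR site, on 2R from 6120583 to 6120854, had fold enrichments of 12.6, 20.1 and 18.1 in wing, leg and gland, with −1.30 (SE 0.31, adjusted p = 0.000161) for wing over gland and −1.45 (SE 0.34, adjusted p = 0.000144) for leg over gland in the authors' deposited tables. The single shared site near Hr78, an orphan receptor gene, lies inside Glg1 and is described with the wing and leg comparison.

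Among the other early genes, br codes for a family of zinc finger factors that specify pupal fate, and had 6 shared sites of 13, all of them called. Its span lies within that of Mur2B, so the sites cannot be given to 1 of these genes by position. In the authors' deposited tables, 1 of the 6 was higher in the discs and 5 in the gland, for the wing and for the leg. The site higher in the discs, on X from 1576985 to 1577480, had fold enrichments of 64.7, 68.0 and 22.8 in wing, leg and gland, with 0.86 (SE 0.25) for wing over gland and 0.83 (SE 0.27) for leg over gland in the authors' deposited tables. The site from 1610021 to 1610627 had 5.82, 8.24 and 35.5, and its log2 fold changes in the authors' deposited tables, −3.29 (SE 0.38, adjusted p = 2e-16) and −3.02 (SE 0.41, adjusted p = 1.51e-11), were the most negative at any gene of the lists. Eip74EF, an ETS factor, had 9 shared sites of 18. None was higher in a disc, 3 were higher in the gland than in the wing, and 4 were higher in the gland than in the leg in the authors' deposited tables. The Eip74EF site from 17579494 to 17579973 had fold enrichments of 9.30, 4.33 and 34.7 in wing, leg and gland, with −1.36 (SE 0.35) for wing over gland and −2.58 (SE 0.39) for leg over gland in the authors' deposited tables. By contrast the site from 17563568 to 17564074, with 30.7, 46.9 and 21.97, gave 0.03 (SE 0.26) and −0.07 (SE 0.29).

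Blimp-1, a repressor induced by ecdysone that times the later gene ftz-f1, showed the opposite pattern. It had 2 shared sites in or within 2000 bp and 3 within 5000 bp, and these 3 were higher in both discs in the authors' deposited tables. The site 2957 bp outside the span, on 3L from 5627664 to 5628389, had fold enrichments of 111 in wing, 156 in leg and 16.0 in gland, the highest wing value of the set, with 2.17 (SE 0.32, adjusted p = 5.45e-10) for wing over gland and 2.28 (SE 0.35, adjusted p = 4.97e-09) for leg over gland in the authors' deposited tables. A site inside the span, from 5633089 to 5634517, had 41.7, 97.8 and 13.2, with 1.76 (SE 0.28) and 1.95 (SE 0.31) in the authors' deposited tables. The highest leg value of the set, 160, belonged to a site 8868 bp from Blimp-1, where the wing had 106. ImpE2, an ecdysone-inducible gene of imaginal discs, also had its shared site higher in the discs, with fold enrichments of 58.4, 69.7 and 13.0 in wing, leg and gland and with 2.15 (SE 0.33) for wing over gland and 1.77 (SE 0.35) for leg over gland in the authors' deposited tables.

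The ecdysone-induced vri, a bZIP factor also known from the circadian clock, had 5 shared sites of 12, of which 2 were higher in the gland than in either disc and 3 were not called. Its strongest site in the disc lists, on 2L from 5291957 to 5292689, had fold enrichments of 67.3, 82.5 and 29.4 in wing, leg and gland and was not called (0.03, SE 0.26, for wing over gland and −0.23, SE 0.28, for leg over gland in the authors' deposited tables). The next site, from 5292828 to 5293365, was the strongest vri site of the gland list, with fold enrichments of 31.5, 24.2 and 32.8 in wing, leg and gland, and gave −0.84 (SE 0.29, adjusted p = 0.00855) and −1.29 (SE 0.32, adjusted p = 0.000282) in the authors' deposited tables. The other vri site higher in the gland, from 5306495 to 5307014, had fold enrichments of 13.1, 12.2 and 24.2. It gave −1.64 (SE 0.19) for wing over gland and −1.98 (SE 0.21) for leg over gland in the authors' deposited tables. Kr-h1, a zinc finger gene that answers to juvenile hormone as well, had 4 shared sites in or within 2000 bp, none called between wing and gland and 2 higher in the gland than in the leg. Another within 5000 bp, on 2L from 6078801 to 6079410, was higher in the gland than in both discs. It gave −1.11 (SE 0.20, adjusted p = 2.55e-07) for wing over gland and −0.96 (SE 0.21, adjusted p = 6.36e-05) for leg over gland in the authors' deposited tables. E23, an ABC transporter that exports ecdysone, had 3 shared sites of 5, of which 2 were higher in the gland than in either disc and at 1 the wing exceeded the gland, per the authors' deposited tables. The coactivator gene tai codes for a partner of EcR, and none of its 4 shared sites was called in any table (fold enrichments of 8.54 to 26.7 in wing, 4.53 to 23.8 in leg and 4.51 to 13.8 in gland). The small heat shock genes Hsp27 and Hsp23 lie side by side, and the site between them had fold enrichments of 59.8, 90.4 and 25.9 in wing, leg and gland, with 0.55 (SE 0.25, adjusted p = 0.0512) for wing over gland and 0.65 (SE 0.27, adjusted p = 0.0346) for leg over gland in the authors' deposited tables.

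Of 16 genes of ecdysone synthesis, uptake and turnover, 2 had a shared site. That of phtm, a cytochrome P450 of ecdysone synthesis, lay 1028 bp outside the span on X from 18684384 to 18685092 and also within 5000 bp of Cyp18a1, which inactivates ecdysone. It had fold enrichments of 37.5, 36.7 and 8.04 in wing, leg and gland, with 2.05 (SE 0.30) for wing over gland and 1.86 (SE 0.32) for leg over gland in the authors' deposited tables. Oatp74D, an importer of ecdysone, had a site that was not called (0.17, SE 0.41, and 0.35, SE 0.44, in the authors' deposited tables).

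**Figure D5:**
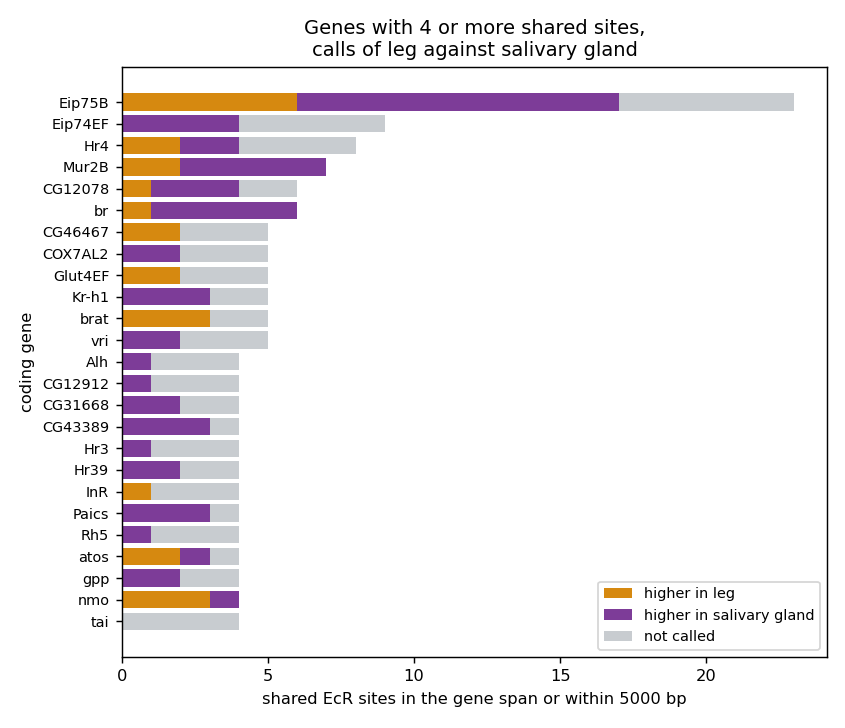
Number of shared EcR sites in or within 5000 bp of each coding gene with 4 or more, split by the call of leg against salivary gland in the authors' deposited table. Eip75B has 23, of which 6 were higher in the leg and 11 in the gland, and at brat 3 of 5 were higher in the leg and none in the gland.

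At the listed genes outside the ecdysone lists the counts were low, which depends on the genes that were listed. The kinase gene nmo and the Notch coactivator gene mam were on none of the lists. They had 4 and 3 shared sites in or within 5000 bp and are described below. Of 20 Wnt and planar polarity genes, 2 had a shared site. Those in fz2, a Wingless receptor (fold enrichments 38.6, 39.8 and 7.22 in wing, leg and gland), and in nkd, an antagonist of Wingless signalling (44.5, 78.9 and 9.03), were both higher in the discs. The values for nkd were 2.097 (SE 0.43) for wing over gland and 2.08 (SE 0.47) for leg over gland in the authors' deposited tables, and those for fz2 were 1.42 (SE 0.38) and 1.32 (SE 0.41). Of 21 Notch and EGFR genes, Raf, a kinase of the MAP kinase cascade, had 2 shared sites, both higher in the gland (−1.78 and −1.47 for wing over gland and −1.12 and −1.02 for leg over gland in the authors' deposited tables), and E(spl)mbeta-HLH, a Notch target, had 1 that was not called. Of 16 growth genes only InR, the insulin receptor, had shared sites, 4 of 9. In the tables the authors deposited, 2 of these exceeded the gland in the wing and 1 did so in the leg, while no InR site was higher in the gland. Of 14 genes of gland identity and secretion, CrebA, an activator of secretory genes, had a shared site, and it was higher in the discs (0.90, SE 0.25, for wing over gland and 0.83, SE 0.27, for leg over gland in the authors' deposited tables). Of 13 corepressor and coactivator genes, osa, a subunit of a Brahma chromatin remodelling complex, had 1 shared site beside those of tai. The osa site was higher in the gland (−2.62, SE 0.30, for wing over gland and −2.51, SE 0.32, for leg over gland in the authors' deposited tables).

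Of 20 genes of disc eversion and matrix, zip, the heavy chain of non-muscle myosin, had 2 shared sites and puc, a phosphatase that limits JNK signalling, had 1, and none of the 3 was called. Wing identity genes had 1 shared site, in hth, that was not called. No shared site lay within 2000 bp of the listed juvenile hormone, Dpp and Hedgehog, leg identity and Hox, cell death and autophagy, cell cycle or salivary glue genes. In a window of 5000 bp, the juvenile hormone, cell death and cell cycle lists had 1 shared site each. The Dpp and Hedgehog list then had 2, and the leg identity and glue lists had 0. Within 2000 bp, EcR sites of other classes lay at 10 of 21 Dpp and Hedgehog genes, 9 of 22 leg identity and Hox genes and 8 of 18 cell death genes. They also lay at 3 of 16 cell cycle genes, 1 of 7 juvenile hormone genes and 1 of 12 glue genes. Of the lists of other cell types, haemocyte genes had 1 shared site in ush, a zinc finger cofactor gene (−2.44, SE 0.34, for wing over gland and −2.38, SE 0.36, for leg over gland in the authors' deposited tables), trachea genes 1 at verm, cuticle genes 1 near Cpr49Ac, and fat body, muscle and neuron genes none.

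Several genes outside the lists collected shared sites, and 36 genes had 3 or more in or within 5000 bp. At brat, which codes for a translational repressor, 3 of 5 shared sites were higher in both discs in the authors' deposited tables. The largest wing value, 1.87 (SE 0.35), was at the site from 19142222 to 19142565, with 1.13 (SE 0.37) for leg over gland. The largest leg value, 1.53 (SE 0.30), was at the site from 19138557 to 19139072, with 1.45 (SE 0.29) for wing over gland. At nmo, a kinase gene, all 4 sites were called, 3 higher in the discs and 1 in the gland. At gpp, the gene for the H3K79 methyltransferase Dot1, 2 of 4 were higher in the gland than in either disc and none was higher in a disc. At mam, the Notch coactivator mastermind, 3 shared sites included 1 where the wing exceeded the gland (0.92, SE 0.37) and 1 higher in the gland than in both discs (−1.31, SE 0.33, for wing over gland and −1.83, SE 0.37, for leg over gland in the authors' deposited tables). At atos, a site from 11634025 to 11634456 on 2R was higher in the wing by 2.74 (SE 0.40, adjusted p = 2.63e-10) and a neighbour, from 11637281 to 11637919, gave −1.42 (SE 0.22, adjusted p = 2.79e-09) in the authors' deposited table. Of the 6 sites around CG12078 and CG43389 on 3L, 1 was higher in the discs (2.29, SE 0.31, for wing over gland in the authors' deposited table) and 3 in the gland (−0.74, −0.72 and −1.95).

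The largest differences at shared sites whose mean reached the median over all sites were as follows. The site with the largest disc value for the leg, and the second for the wing after the atos site above, was in CG7720 on 3R from 18788400 to 18789226, with fold enrichments of 50.6, 54.8 and 7.20 in wing, leg and gland and with 2.62 (SE 0.29) for wing over gland and 2.66 (SE 0.30) for leg over gland in the authors' deposited tables. For the wing, sites 18519 bp from CheA75a (2.55 in the authors' deposited table), in Eip75B (2.54, given above) and 9027 bp from phtm (2.52) came next. For the leg these were sites 3517 bp from CG32447 (2.59 in the authors' deposited table), in Eip75B (2.47, given above) and 5 bp from Or67a (2.45). Highest in the gland, apart from sites near the centromere of 2R and the br site given above, was a site in BNIP3, a gene of mitophagy, with fold enrichments of 7.91, 13.3 and 31.7 and with −3.41 (SE 0.29) for wing over gland and −2.76 (SE 0.31) for leg over gland in the authors' deposited tables. A site 2979 bp from Gr93a was next in both comparisons (−3.19 and −2.59 in the authors' deposited tables). After it came CHES-1-like for the wing (−2.96, SE 0.64) and the Eip74EF site above for the leg (−2.58), and then in both a site in Akap200, an anchor protein of protein kinase A (−2.90 and −2.53 in the authors' deposited tables).

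At 2R, 4 shared sites between 5049586 and 5056313, near the centromere and 9082 bp or more from the nearest coding span, TpnC41C, stood apart from the rest. Their mean normalised read counts in the authors' deposited table were 5596, 202, 276 and 350. Their log2 fold changes in the authors' deposited tables were −5.14, −2.66, −2.15 and −4.82 for wing over gland and −4.83, −2.51, −1.94 and −5.15 for leg over gland, and the first and last were the most negative of the whole set. Without these 4 sites, a choice made after seeing the data, the calls at the other 346 were 99 wing-higher and 95 gland-higher, 78 leg-higher and 108 gland-higher, and 8 wing-higher and 1 leg-higher. Over all sites, with these 4 included, the shares were 28.7% and 26.4%, 29.6% and 22.7%, and 0.571% and 0.902% in the same order.

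Between wing and leg few shared sites differed. Highest in the wing was a site in the overlapping ome and CG4914 on 3L from 14675811 to 14676164, with fold enrichments of 26.7 in wing, 9.57 in leg and 11.2 in gland and a log2 fold change of 1.71 (SE 0.23, adjusted p = 2.58e-10) for wing over leg in the authors' deposited table. A site in CG11905 followed (1.52, SE 0.22, adjusted p = 3.19e-09), and then sites in Phk-3, a gene of the chemosensory protein family (1.24, SE 0.28, adjusted p = 0.00424), in Fs, the fly follistatin (1.05, SE 0.29, adjusted p = 0.0254), in E23 (0.98, SE 0.24, adjusted p = 0.0093) and in Dmtn (0.97, SE 0.24, adjusted p = 0.0093) in the authors' deposited table. The other two were in Eip75B, from 18001519 to 18001766 (1.10, SE 0.30, adjusted p = 0.0257) and from 18011972 to 18012589 (0.96, SE 0.18, adjusted p = 8.63e-05 in the authors' deposited table). The only site higher in the leg lay in Glg1 near Hr78, on 3L from 21498537 to 21498667, at −2.09 (SE 0.63, adjusted p = 0.0497) in the authors' deposited table. Its fold enrichments were 2.57 in wing, 5.74 in leg and 13.6 in gland, it is 1 of the 12 weakest sites of the set by −log10 q, and it had no wing or gland pellet peak.

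At the other end, some strong shared sites had log2 fold changes near 0 in the 3 comparisons of the authors' deposited tables. The medians of all sites on the large arms were 0.42 for wing over gland, 0.63 for leg over gland and −0.19 for wing over leg. A value near 0 therefore does not show an equal level in the tissues. Among sites whose mean reached the median of the set, the smallest differences were at a site in alt on 3R from 17680336 to 17680887. It had fold enrichments of 22.8, 22.7 and 11.7 in wing, leg and gland, and log2 fold changes of −0.02 (SE 0.26) for wing over gland, −0.04 (SE 0.27) for leg over gland and 0.02 (SE 0.25) for wing over leg in the authors' deposited tables. Sites at Oscillin, in Eip74EF, in Hr4, in InR and in kay, which encodes Fos, were among the next, and in all of these each log2 fold change was within 0.20 of 0 in the authors' deposited tables. A site that is not called may still differ by more than its standard error, here 0.19 to 0.38. These sites were also picked for their small values.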

How the data were processed

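Supernatant and pellet fractions of EcR CUT&RUN were measured for 3 tissues. The submitters' processing notes name, in no set order, MACS2 2.1.2, Bowtie2 2.3.4.1, R 3.5.2, DESeq2 without a version, Picard 2.2.4, SAMtools 1.9 and bedtools 2.26, with the build dm6 and no settings. Names of the deposited lists say that replicates were merged and duplicates removed, and peak names point to merged wing IgG as the control of all 6 lists, the gland's included.

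The authors deposited for each peak a fold enrichment (a ratio over background), a −log10 q-value, a peak score and, as another value, the offset of the summit in bp. Each of the authors' deposited 3 tables gives a mean normalised read count (a signal), a log2 fold change with its standard error, a Wald score, a p-value and an adjusted p-value. The libraries behind each fit are not named in the sources at hand. At shared sites the score differed from the fold change over its error by at most 0.152, and the sources at hand do not state whether the fold changes were shrunk. Wing over gland equals leg over gland plus wing over leg at every shared site, so the tables are not independent.

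No table gives read counts by library. The authors' adjusted p with a threshold of 0.05 therefore took the place of the planned test on counts, and depth is unknown. Overlap was at least 1 bp, and the authors' 6 overlap flags equalled the overlap computed here. For centring, the median of the large arms over the standard error was subtracted from the score, followed by normal p-values with Benjamini-Hochberg adjustment, tested on simulated data. Intervals are exact (Clopper-Pearson, 95%). Gene spans came from a RefSeq table of Release 6, the assembly of dm6, with 17872 genes (13962 coding). The 22 gene lists had 339 names, 13 found under an older symbol and 1 not found. Coordinates are 1-based. Python 3.11.15, pandas 2.3.3, numpy 2.4.6, scipy 1.17.1 and matplotlib 3.10.9 were used. Sequences and the planned search for motifs were not analysed here.

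The sites and gene lists were chosen with earlier results of these data known. Sites named are those at listed genes, the 10 called sites of each direction with the largest fold change (mean at or above the median of all sites, 1 per gene), the 10 strongest of each list, the 10 with the smallest differences, and those of genes with 3 or more. The alternatives tried were an adjusted p under 0.01, centring, a −log10 q of 10 or more, an absolute log2 fold change of 1 or more, 50% overlap, other distances from genes and no position limits.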

Additional observations from a re-analysis of the deposited data

How the results depend on the processing

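The counts of shared sites called kept within 1.5 times of the reported ones at an adjusted p under 0.01 (138 for leg against gland, 160 for wing against gland and 6 for wing against leg), except that 0 sites were then higher in the leg than in the wing. When every list was limited to peaks with −log10 q at or above 10, the set itself shrank to 173 sites. Of these, 97 were called between wing and gland (43 higher in the wing, 54 in the gland), 94 between leg and gland (34 in the leg, 60 in the gland) and 4 between wing and leg (4 in the wing, 0 in the leg). The share of all sites called was not computed at an adjusted p under 0.01 or for these stronger peaks. Those counts are therefore no result about the shared sites. Over the full set of 350 shared sites, a gland pellet peak with −log10 q at or above 10 was present at 155 in place of 242. Fewer sites enter by construction. After centring, wing calls over the gland were 64, those higher in the leg 37 and those higher in the gland than in the leg 174. Between wing and leg 18 were then called, 18 higher in the wing and 0 in the leg. With an absolute log2 fold change of 1 or more, 5 were higher in the wing than in the leg. Within 1000 bp of a span end lay 68 sites, by a wider window. In all, 39 of 59 values stayed within 1.5 times of the reported ones, among them every count without the 4 sites of 2R near the centromere, an alternative chosen after seeing the data. The cause of the other changes was not tested. No paired analysis was possible because the deposited tables and lists hold no values per replicate, and for the same reason leaving out replicates and the count tests were not run. The lists are from merged replicates, so no share or fold enrichment has a replicate error, and depth sets an unknown limit on weak peaks.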

Other observations

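No peak of any pellet list overlapped 9 shared sites (2.57%), beside 35.3% of all 3032 sites in the chromosome windows. The 9 lay in lilli, brat, CG1273, RasGAP1, siz, Alh and Bicra, 29 bp from regucalcin and 13287 bp from CG42524. Their mean normalised read counts in the authors' deposited table were between 7.34 and 14.1, below the lower quartile of the set at 27.7.

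A site in alpha-Man-Ia, a mannosidase gene on X from 10302437 to 10302599, combined a mean normalised read count of 365 in the authors' deposited table with fold enrichments of 2.44 in wing, 2.71 in leg and 4.16 in gland, of which those of the wing and the leg were the lowest of the set in their lists. Its log2 fold changes were 1.02 (SE 0.45, adjusted p = 0.04) for wing over gland and 1.14 (SE 0.49, adjusted p = 0.04) for leg over gland in the authors' deposited tables.

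A group of 4 sites near CG10283 on 2L, in a stretch of 5.19 kb that begins 8759 bp from that gene, was higher in both discs at each site. Their log2 fold changes in the authors' deposited tables were 2.197, 1.77, 1.499 and 2.48 for wing over gland and 1.95, 1.57, 0.83 and 2.15 for leg over gland.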
